A study of Homo sapiens with 10 samples.

Results

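Named intergenic long noncoding RNAs are the genes whose symbol begins with LINC and a number in the array annotation. They were taken as all gene-level probe sets with such a symbol, 971 of 48144 tested probe sets (2.02%), and they stand for 910 symbols. All 971 belong to the main category of the array and 0 to the rescue category. The cells were UT-SCC-12a, an established human line grown from squamous cell carcinoma of the skin, and the array was an Affymetrix human gene array read with biotin-labelled cDNA from total RNA. The first group carried a stable lentiviral shMIMIC construct that overexpresses the microRNA miR-23b-3p, on 5 arrays. The control group carried the same kind of vector with a scrambled RNA, also on 5 arrays. Both groups are thus transduced lines, grown in the same serum-containing medium, and untransduced cells are not analysed here. The labels name no promoter and do not say whether a line is a clone or whether the 5 RNA samples of a group were cultured apart. The p-values therefore speak of array-to-array spread alone, which may be technical. Values are log2 signals (RMA), and differences are overexpressing minus control.

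Long intergenic noncoding RNAs are transcripts without a recognised protein product that lie between protein-coding genes. Most are made by RNA polymerase II, spliced and kept at low copy number, and many are found in few cell types. Some act in the nucleus on chromatin and transcription of nearby genes, others bind proteins or microRNAs in the cytoplasm, and some loci have since been found to encode small proteins. In skin, several regulate keratinocyte differentiation, and PICSAR (LINC00162) and PRECSIT (LINC00346) are known for promoting growth or invasion of cutaneous squamous cell carcinoma cells. A microRNA recognises its targets mainly through its seed, bases 2 to 8. The seed of the overexpressed microRNA is in capitals in its mature sequence from RefSeq (23 bases, GRCh38.p14, chr9:95085265-95085287, plus strand).
miR-23b-3p: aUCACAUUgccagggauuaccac
Transcript sequences of the noncoding RNAs were not used here, so sites for this seed were not searched.

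The promoter windows below show the range of start regions among these loci, 250 bases before to 50 after the annotated start, with CpG dinucleotides in capitals (RefSeq, GRCh38.p14). LINC00657, now named NORAD, lies at chr20:36050911-36051210 on the minus strand, LINC00888, now SNHG33, at chr3:183447358-183447657 on the plus strand and LINC01521 at chr22:31346509-31346808 on the plus strand. These 3 loci had a mean array signal above 4. LINC01095 (chr4:146121864-146122163, minus strand) and LINC00377 (chr13:81018141-81018440, plus strand) had signals near the array background. LINC00888, LINC01521, LINC01095 and LINC00377 are also among the 7 probe sets whose groups of arrays did not overlap.
LINC00657: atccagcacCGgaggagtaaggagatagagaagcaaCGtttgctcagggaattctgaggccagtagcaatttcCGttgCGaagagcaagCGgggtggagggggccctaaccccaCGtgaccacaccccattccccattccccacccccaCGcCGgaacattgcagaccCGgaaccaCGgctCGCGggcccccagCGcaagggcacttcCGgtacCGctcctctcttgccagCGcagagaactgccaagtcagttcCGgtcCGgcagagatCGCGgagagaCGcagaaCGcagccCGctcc
LINC00888: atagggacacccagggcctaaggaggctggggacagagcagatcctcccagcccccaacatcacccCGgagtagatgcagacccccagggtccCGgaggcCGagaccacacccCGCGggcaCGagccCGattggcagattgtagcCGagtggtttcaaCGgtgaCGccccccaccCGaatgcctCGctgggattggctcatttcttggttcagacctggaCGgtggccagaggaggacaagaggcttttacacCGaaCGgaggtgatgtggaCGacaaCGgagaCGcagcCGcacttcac
LINC01521: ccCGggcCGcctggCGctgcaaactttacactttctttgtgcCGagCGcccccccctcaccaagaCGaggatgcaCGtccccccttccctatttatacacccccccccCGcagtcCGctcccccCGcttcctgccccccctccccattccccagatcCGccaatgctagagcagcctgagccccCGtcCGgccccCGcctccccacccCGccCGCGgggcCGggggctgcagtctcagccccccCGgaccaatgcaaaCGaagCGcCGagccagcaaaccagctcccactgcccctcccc
LINC01095: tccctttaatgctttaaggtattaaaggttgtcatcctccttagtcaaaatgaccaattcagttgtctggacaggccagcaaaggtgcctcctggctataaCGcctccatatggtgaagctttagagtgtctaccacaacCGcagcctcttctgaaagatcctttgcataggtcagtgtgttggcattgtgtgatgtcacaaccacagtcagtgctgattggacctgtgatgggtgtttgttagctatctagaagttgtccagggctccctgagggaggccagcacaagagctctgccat
LINC00377: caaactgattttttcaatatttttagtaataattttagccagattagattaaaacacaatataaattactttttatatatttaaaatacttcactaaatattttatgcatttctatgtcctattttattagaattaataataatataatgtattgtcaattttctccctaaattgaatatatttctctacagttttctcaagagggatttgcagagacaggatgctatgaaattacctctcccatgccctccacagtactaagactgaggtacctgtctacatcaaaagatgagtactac

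Most LINC probe sets read close to background in these carcinoma cells. Their mean signal over the 10 arrays had a median of 2.71, against 3.15 over all tested probe sets. It exceeded 4 in 121 of 971 (12.5%), for 110 symbols, and 5 in 53 (5.46%). Other genes that RefSeq classes as lncRNA were alike in this respect, with 713 of 6198 probe sets above 4 (11.5%), whereas protein-coding genes had 11594 of 19689 (58.9%). The 23 antigenomic probe sets, which match no human sequence, had mean signals from 1.85 to 6.22 with a median of 2.37. A signal of 4 is therefore a working limit and no proof of a transcript, and 28 LINC probe sets lay above 6.14, the 95th percentile of the antigenomic ones.

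**Figure D1:**
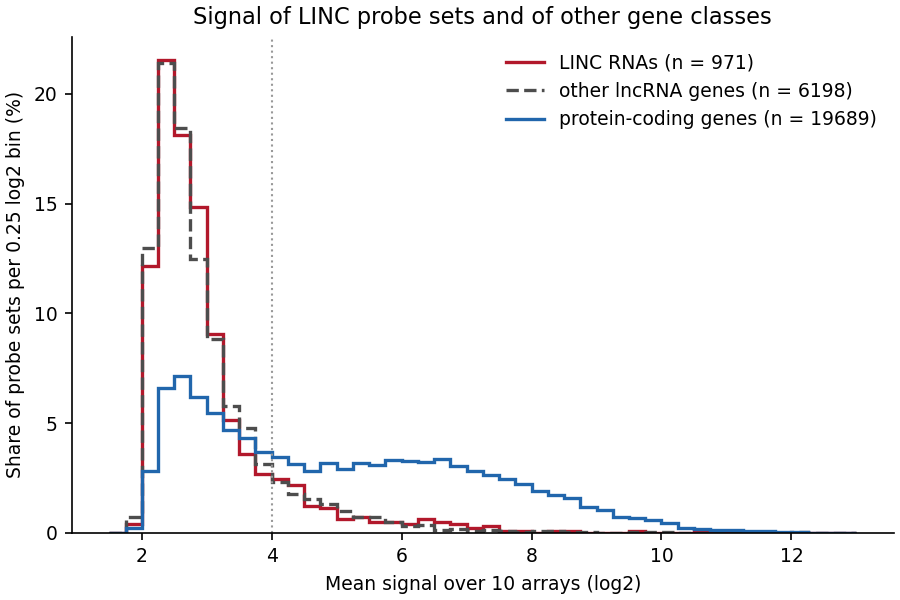
Share of probe sets (vertical axis, percent per bin of 0.25 log2 units) by mean signal over 10 arrays (horizontal axis, log2) for 971 LINC probe sets, 6198 of other lncRNA genes and 19689 of protein-coding genes, with a dotted line at 4. The LINC curve lies on that of other lncRNA genes, and 12.5% of it is to the right of the line, against 58.9% for protein-coding genes.

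The named loci are unevenly spread over the genome, and so is their signal. Chromosome 13 held 131 of the 971 probe sets, more than any other, but only 5 of these 131 (3.82%) had a mean above 4. Chromosome 1 had 17 of 80 above 4 (21.3%), chromosome 7 had 6 of 28 (21.4%) and chromosome 22 had 5 of 17 (29.4%). By contrast, chromosome 4 had 1 of 34 (2.94%) and chromosome 6 had 2 of 43 (4.65%). Probe numbers did not set LINC RNAs apart, with a median of 21 probes per probe set both for them and for all tested probe sets. The annotation marks 926 of the 971 as unique in sequence (cross-hybridization type 1) and 45 as mixed (type 3).

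Start regions of the members with signal differed in base composition from those of the dim ones. A promoter window was matched for 632 of 912 gene identifiers, with the first listed window taken per gene and the brightest probe set standing for the gene. The 83 genes with a mean above 4 had a median of 14 CpG dinucleotides in the 300 bases, the 549 dimmer genes had 4, and all 27305 genes in the table had 14. An observed over expected CpG ratio above 0.6 was found in 51.8% of the brighter members, 20.0% of the dimmer ones and 48.9% of all genes. The GC box GGGCGG, on either strand, was present in 48.2%, 19.9% and 44.6% of these sets. The TATA motif TATAAA, also on either strand and anywhere in the window, was present in 12.0%, 15.1% and 12.0%. The AP-1 motif TGANTCA was present in 8.43%, 13.3% and 7.76%. Across the 632 genes CpG count and mean signal had a Spearman rho of 0.401, a description over genes that share arrays and whose probe sets also differ in base content. The NORAD and LINC00377 windows printed above are examples of a CpG-rich and a CpG-free start.

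**Figure D2:**
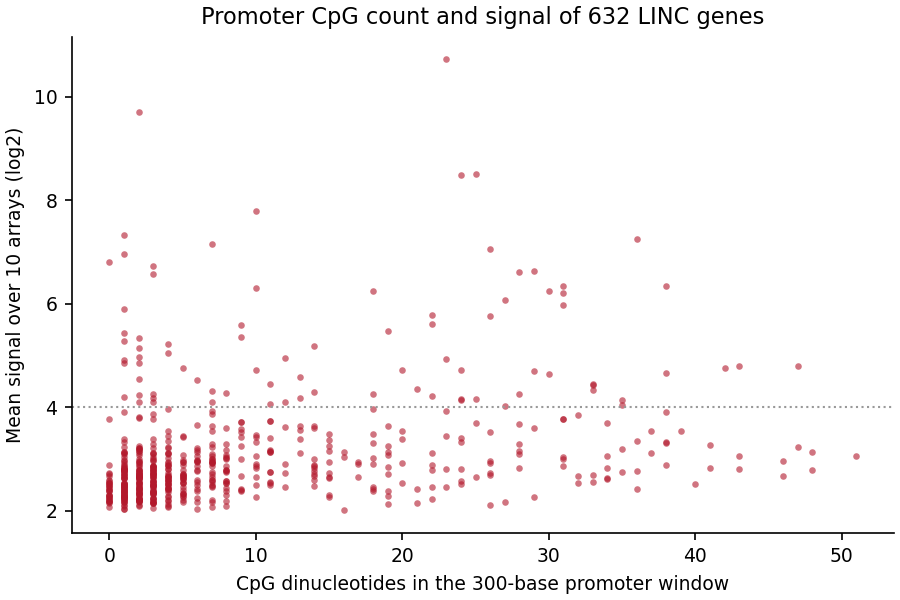
Mean signal over 10 arrays (vertical axis, log2) against the number of CpG dinucleotides in the 300-base promoter window (horizontal axis), with 1 point for each of 632 LINC genes and a dotted line at 4. The 83 genes above the line have a median of 14 CpG and the 549 below it a median of 4.

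With miR-23b-3p, 0 of 971 LINC probe sets passed limma at an adjusted p of 0.05, where 0.0187% of all tested probe sets did. The lowest adjusted p among them was 0.243, of LINC00536. At an unadjusted limma p under 0.05 there were 48 of 971 (4.94%), against 6.63% over all tested probe sets. Of these 48, 29 were higher in overexpressing cells and 19 lower, against backgrounds of 3.67% higher and 2.95% lower. By q under 0.05 in the authors' deposited table, 0 LINC probe sets are called, and the lowest q is 0.0939. The share over all probe sets by the authors' test is not given here. By limma, the share of LINC RNAs with a low p was thus no larger than that of the array as a whole.

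Differences of LINC RNAs were small in both directions. Their median was 0.006, against 0.002 for all tested probe sets, with 501 higher and 458 lower, and it was -0.01 after median centring of the arrays. From the 5th to the 95th percentile they ran from -0.16 to 0.19, and over all tested probe sets from -0.18 to 0.20. Extremes were LINC00969, now MIR570HG, at -0.46 and LINC01372 at 0.44, and neither passed (adjusted p = 0.718 and 0.675). The 95% interval of the difference lay within 1.5-fold either way for 960 of 971 probe sets and within 2-fold for all 971. Near background a probe set may respond little to its transcript, so those limits are firmest for the 121 with a mean above 4, where 117 intervals lay within 1.5-fold and all 121 within 2-fold. The RNA came from whole cultures, in which fewer cells with a transcript and less of it per cell cannot be told apart.

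**Figure D3:**
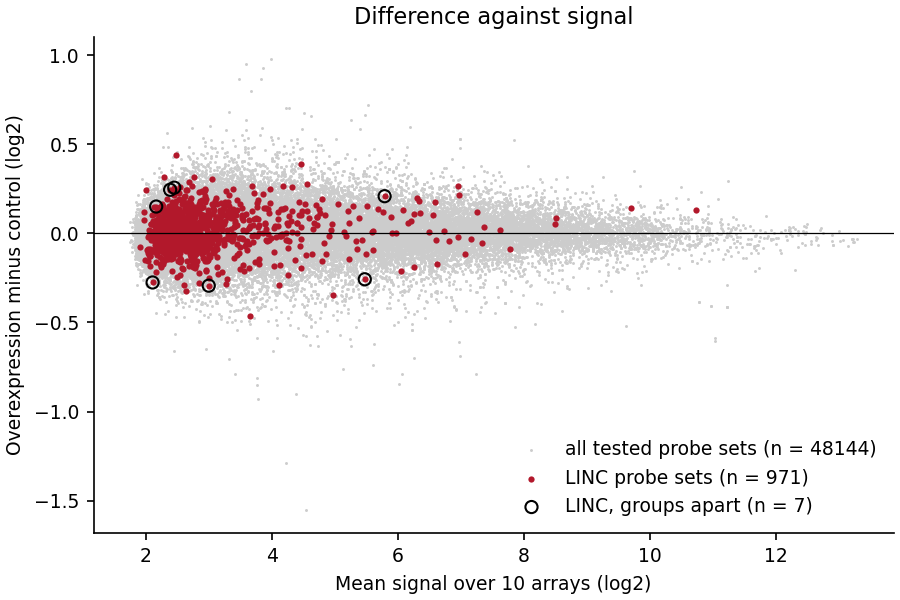
Log2 difference, overexpressing minus control (vertical axis), against mean signal over 10 arrays (horizontal axis, log2), for all 48144 tested probe sets in grey, 971 LINC probe sets in red and the 7 whose groups of arrays do not overlap circled. LINC differences stay between -0.46 and 0.44, and some of the far more numerous other probe sets reach beyond 1 unit. The 5th to 95th percentiles are close, -0.16 to 0.19 for LINC and -0.18 to 0.20 for all tested probe sets.

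Among the 121 LINC probe sets above 4, 74 were higher and 44 lower in overexpressing cells (61.2% higher), with a median difference of 0.04. All 16914 tested probe sets above that level had 8837 higher (52.2%) and a median of 0.006. After median centring the medians were 0.024 and -0.01, with 66 of 121 LINC probe sets higher. Per array, the median deviation of these 121 from their 10-array means was 0.006, 0.042, 0.024, -0.002 and 0.037 in the overexpressing replicates 1 to 5, against -0.018, 0.016, -0.038, 0.003 and 0.031 in the controls. The arrays of the groups overlap on this measure. Leaving out single arrays gave LINC medians from 0.025, without control replicate 4, to 0.0545, without control replicate 5. The mean of the poly-A spikes, control transcripts added before labelling, ran from 5.20 to 5.46 in overexpressing samples and from 5.44 to 5.48 in controls. With the spike mean as a covariate the LINC median was 0.039 with 72 of 121 higher. At an unadjusted p under 0.05 there were 6 of the 121, against 8.54% of all tested probe sets above 4.

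Groups of arrays did not overlap for 7 of 971 LINC probe sets, 4 higher and 3 lower, where this held for 1.35% of all tested probe sets, 0.685% higher and 0.661% lower. These 7 were picked by that separation, so their exact permutation p of 0.00794, the smallest that 5 against 5 arrays allow, follows from the choice. Of the 7, LINC00888 and LINC01521 had a mean above 4, that is 2 of 121 against a background of 2.65% at that level. The other 5 had means below 4.

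LINC00888 is listed by RefSeq as SNHG33, a host gene of small nucleolar RNA. Its probe set of 11 probes (hg19 chromosome 3, 183171602 to 183171732, plus strand) read 5.37, 5.44, 5.26, 5.26 and 5.39 in overexpressing cells, against 5.55, 5.68, 5.54, 5.74 and 5.50 in controls. Every overexpressing array was below every control array. The difference was -0.26 (SE 0.069, limma adjusted p = 0.477). Its second probe set, which spans 183165396 to 183173801 and so contains the first, differed by -0.14 (SE 0.11), with overlapping groups. The next annotated genes were MCF2L2, 25036 bases to the left, at -0.01 (SE 0.078), and KLHL6, 33587 bases to the right, at -0.062 (SE 0.075). Both had signals below 4, where a probe set may respond little. In overexpressing cells and controls MCF2L2 averaged 2.67 and 2.68, and KLHL6 averaged 3.12 and 3.18.

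LINC01521 (hg19 chromosome 22, 31742875 to 31744670, plus strand) read 6.07, 5.81, 5.81, 5.86 and 5.91 in overexpressing cells, against 5.60, 5.63, 5.73, 5.68 and 5.78 in controls. All overexpressing arrays were above the controls, with 5.81 as the lowest of the overexpressing values and 5.78 as the highest control. The difference was 0.21 (SE 0.069, limma adjusted p = 0.643). It starts 626 bases from PATZ1, a zinc finger transcription factor gene on the opposite strand, which stood at -0.066 (SE 0.12). DRG1, the next gene to the right, stood at -0.012 (SE 0.069).

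LINC00536 on chromosome 8 had the lowest p of the LINC RNAs at a low signal. It read 2.87, 2.87, 2.80, 2.86 and 2.85 in overexpressing cells, against 3.19, 3.07, 3.21, 3.07 and 3.18 in controls. The overexpressing arrays were close together, with an SD of 0.029 against 0.068 in the controls. The difference was -0.29 (SE 0.057, limma adjusted p = 0.243). The neighbouring TRPS1, a GATA-type repressor gene, lay 140837 bases to the left and stood at 0.002 (SE 0.068). Its signal was also low, with a mean of 2.51 in both groups. LOC102723447, to the right, stood at 0.088 (SE 0.089).

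LINC00393 (hg19 chromosome 13, 73987610 to 74222390, minus strand) read 2.49, 2.61, 2.44, 2.41 and 2.58 in overexpressing cells, against 2.32, 2.21, 2.40, 2.18 and 2.20 in controls. The lowest overexpressing value, 2.41, is next to the highest control value, 2.40. The difference was 0.24 (SE 0.069, limma adjusted p = 0.515). KLF12, a Krüppel-like repressor gene 37759 bases to the right on the same strand, averaged 6.19 ± 0.099 in overexpressing cells and 5.80 ± 0.19 in controls (SD, n = 5 each). Its difference was 0.39 (SE 0.093, limma adjusted p = 0.410), the largest among the neighbours of the separated members. RNU6-66P, the next locus to the left, stood at 0.11 (SE 0.079). Of the other separated members, LINC01095 averaged 2.58 ± 0.099 against 2.32 ± 0.091 in controls, LINC00911 2.24 ± 0.097 against 2.09 ± 0.056, and the shorter LINC00377 probe set 1.97 ± 0.13 against 2.24 ± 0.082 (SD, n = 5 each). Their differences were 0.26, 0.15 and -0.28, with limma adjusted p from 0.492 to 0.739. The neighbours of LINC01095 went both ways, ZNF827 at 0.11 (SE 0.080) and LSM6 at -0.11 (SE 0.12). Those of LINC00911 stood at -0.054 (LOC105370605) and 0.022 (LOC100506731). Those of LINC00377 stood at 0.002 (LOC105370278) and 0.10 (LOC105370281).

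**Figure D4:**
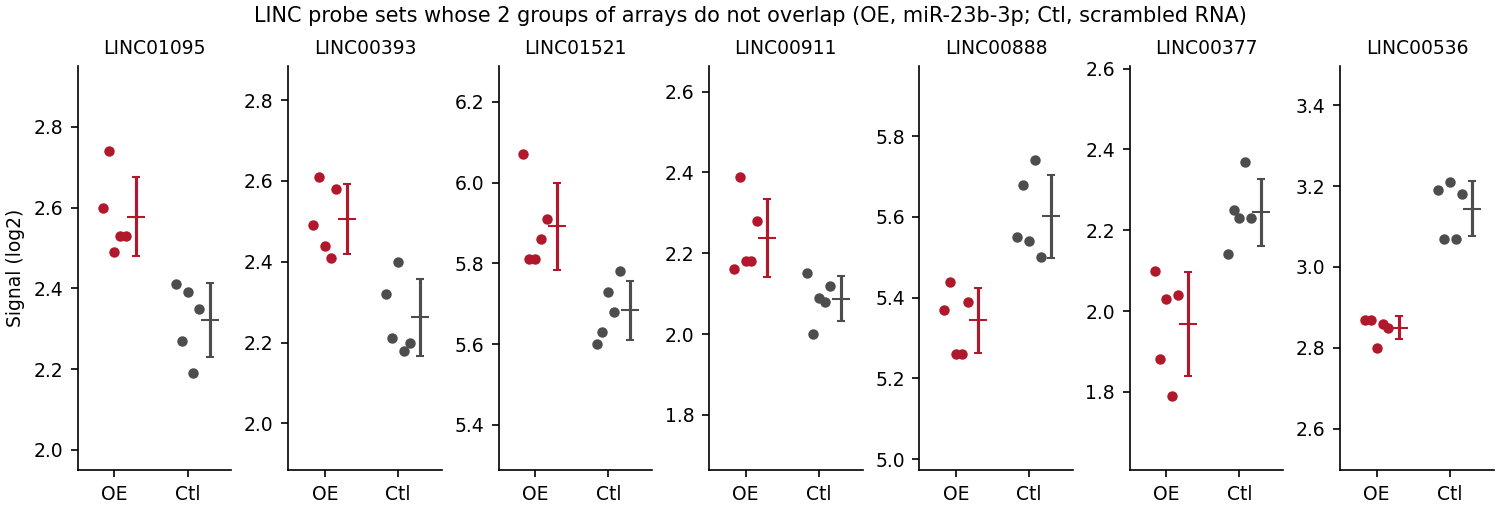
Signal (vertical axes, log2, each spanning 1 unit) on every array for the 7 LINC probe sets whose groups do not overlap, with overexpressing arrays (OE, red) left and scrambled controls (Ctl, grey) right; bars are mean and SD of 5 arrays. The nearest arrays of the groups read 5.81 and 5.78 for LINC01521, 2.41 and 2.40 for LINC00393, and 2.87 and 3.07 for LINC00536.

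Further LINC RNAs above 4 with an unadjusted p under 0.05 were singled out after their values were seen. LINC00852 (hg19 chromosome 3, 10326103 to 10327430) averaged 4.79 ± 0.20 in overexpressing cells and 5.14 ± 0.14 in controls (SD, n = 5 each), a difference of -0.35 (SE 0.10, limma adjusted p = 0.523). It overlaps TATDN2 on the same strand, at -0.026, and lies 8 bases from GHRLOS, at -0.11, and signal of the overlapping transcripts cannot be told apart. LINC01184, now SLC12A2-DT, averaged 6.54 ± 0.068 and 6.71 ± 0.14 in these groups, a difference of -0.17 (SE 0.076), and its second probe set stood at -0.23 (SE 0.15). LINC00684, now the protein-coding FAM236A, has probe sets at separate places on chromosome X. These, both of mixed cross-hybridization type, stood at 0.27 (SE 0.12) and 0.25 (SE 0.13). None of these passed after adjustment (limma adjusted p of 0.739 to 0.834 for LINC01184 and LINC00684).

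The 8 probe sets with the highest mean signal are those best placed to show a change. LINC00657, or NORAD, an abundant RNA that binds Pumilio proteins and is needed for stable chromosome numbers, read 10.81, 10.73, 10.70, 10.92 and 10.79 in overexpressing cells. In controls it read 10.57, 10.63, 10.62, 10.77 and 10.71. Only control replicates 4 and 5 reached the range of the overexpressing arrays. The difference was 0.13 (SE 0.066, 95% interval -0.013 to 0.27), with an exact two-sided permutation p of 0.0397 and a limma adjusted p of 0.779. That exact p is unadjusted and is 1 of 34 computed for the named probe sets. Beside the 7 chosen by separation, only LINC00657 and LINC00857 had an exact p under 0.05, and the next lowest was 0.0873 (LINC00493).

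LINC01420, now NBDY, encodes a small protein that regulates P-bodies, the cytoplasmic granules of messenger RNA decay. It averaged 7.74 ± 0.14 in overexpressing cells and 7.83 ± 0.12 in controls (SD, n = 5 each), a difference of -0.09 (SE 0.083). LINC01468, now LNCAROD, averaged 7.31 ± 0.13 and 7.36 ± 0.070 in these groups. LINC01503 averaged 7.63 ± 0.11 and 7.61 ± 0.059. LINC01123 and LINC01106 stood at 0.088 and 0.05, and LINC01061 at 0.14 in a chromosome 7 probe set of mixed cross-hybridization type and at 0.27 (SE 0.14) in a unique one on chromosome 4. None of these differences passed limma after adjustment over all tested probe sets (adjusted p of 0.780 or more).

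LINC RNAs reported in squamous carcinomas were measured for 14 of 15 listed symbols, by 15 probe sets, of which 7 had a mean above 4. Of the 15, 8 were higher and 7 lower with a median of 0.006. An unadjusted p under 0.05 was found for 0 of them, against 6.63% of all tested probe sets. For 15 probe sets that count is near the share, so it is no result about the list. PICSAR (LINC00162, hg19 chromosome 21, 46419122 to 46424642) read 5.82, 5.58, 5.19, 5.51 and 5.88 in overexpressing cells, against 5.49, 5.44, 5.90, 5.48 and 5.64 in controls. The groups overlap throughout, and the difference was 0.006 (SE 0.13, 95% interval -0.28 to 0.29). PRECSIT (LINC00346, hg19 chromosome 13, 111515843 to 111522929) averaged 4.32 ± 0.24 in overexpressing cells and 4.32 ± 0.43 in controls (SD, n = 5 each), with an interval from -0.39 to 0.41. LINC00958, known as an oncogenic RNA in several carcinomas, averaged 7.37 ± 0.15 and 7.34 ± 0.032 in these groups, and its interval ran from -0.13 to 0.20.

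Within the same list LINC00707 differed by 0.006 (SE 0.081), LINC00673 by 0.12 (SE 0.088), LINC01133 by 0.15 (SE 0.12) and LINC00963 by -0.16 (SE 0.13). The largest difference of the list was that of LINC00520, at -0.25 (SE 0.12, limma adjusted p = 0.757) and a mean signal of only 2.50. The 8 probe sets with a mean up to 4 had means from 2.20 to 3.47. LINC00152 was not analysed here.

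LINC RNAs of keratinocytes and the epidermal differentiation region were 4 measured members, with 2 higher and 2 lower. An unadjusted limma p under 0.05 was found for 0 of them, against 6.63% of all tested probe sets. For 4 probe sets that count is near the share, so it is no result about the list. LINC00941, known to hold back keratinocyte differentiation, was the only member above 4. It read 3.80, 4.35, 4.41, 4.65 and 4.20 in overexpressing cells, against 4.47, 4.39, 4.37, 4.42 and 4.52 in controls. The overexpressing arrays were spread more widely, and the difference was -0.15 (SE 0.13, limma adjusted p = 0.874). LINC00302 and LINC01527 of the differentiation region had means of 2.48 and 2.42. Of 8 keratinocyte markers on the same arrays, 6 had a mean above 4 (TP63 8.63, KRT5 8.19, SFN 10.56, DSG3 9.85, PERP 8.02 and LY6D 7.25), while KRT14 and KRT6A read 3.70 and 3.72. LY6D was the only marker past the test, at 6.85 ± 0.060 in overexpressing cells and 7.64 ± 0.18 in controls (SD, n = 5 each), and fell by 0.79 (limma adjusted p = 0.00748). Of 4 markers of other cells, the fibroblast collagen COL1A1 had a mean of 4.46 and the mesenchymal VIM 3.18. The leukocyte marker PTPRC had 2.11 and the melanocyte marker MLANA 2.56. Of these 4, 0 passed limma before or after adjustment, against 6.63% and 0.0187% of all tested probe sets, which is no result for so few.

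Hosts of microRNAs or circular RNAs gave 8 probe sets for 6 symbols, with 4 higher, 4 lower and 0 with an unadjusted p under 0.05, against 6.63% of all tested probe sets. In a list of 8 that count is near the share and is no result about the hosts. LINC00472 averaged 6.40 ± 0.20 in overexpressing cells and 6.29 ± 0.12 in controls (SD, n = 5 each). LINC00461, the host of a miR-9 hairpin, and LINC00632, whose locus gives the circular RNA CDR1as, had means of 2.65 and 2.22. Members often studied in other carcinomas counted 19 probe sets, 10 above 4, with 10 higher, 9 lower and a median of 0.046. Of these 19, LINC00857 alone had an unadjusted p under 0.05, a share near the 6.63% of all tested probe sets, so the count is no result about the list. It read 6.19, 6.09, 6.28, 6.21 and 6.03 in overexpressing cells, against 6.35, 6.35, 6.23, 6.49 and 6.32 in controls. Control replicate 3 lay among the overexpressing arrays, and the difference was -0.19 (SE 0.071, limma adjusted p = 0.692, exact two-sided permutation p = 0.0159 without adjustment).

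**Figure D5:**
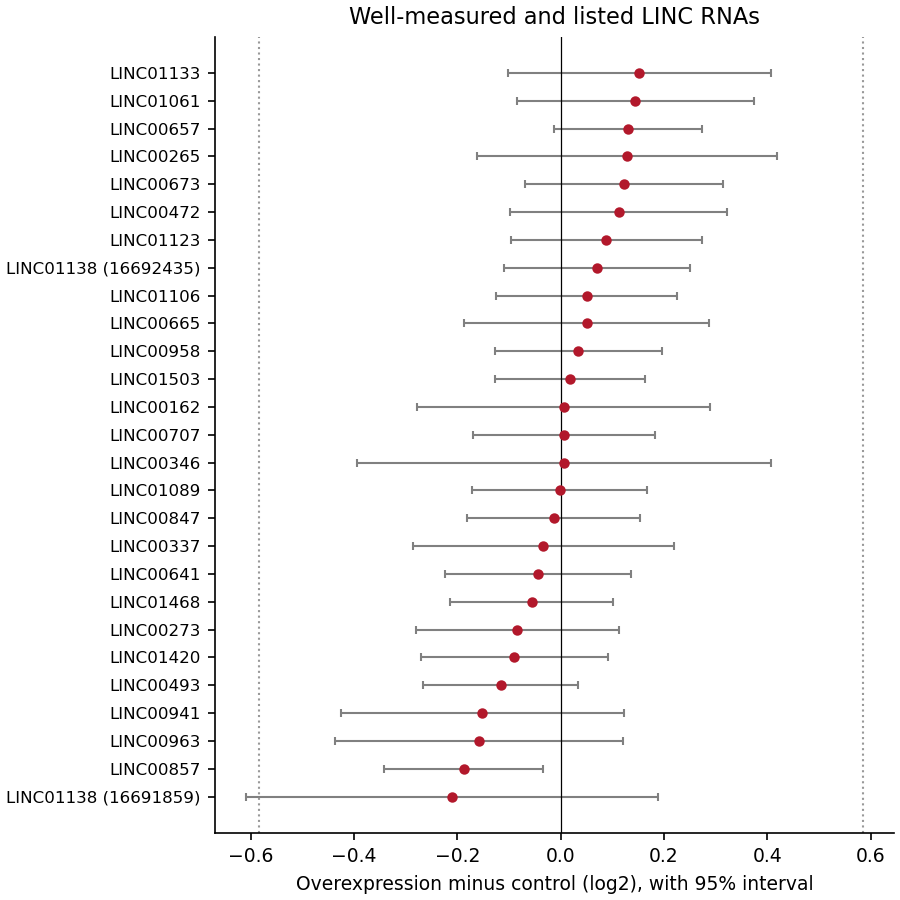
Log2 difference, overexpressing minus control, with its 95% limma interval (horizontal axis) for 27 LINC probe sets, those of the lists with a mean above 4 and the 8 with the highest signal; dotted lines mark 1.5-fold. All intervals except that of LINC00857 include 0, and 26 of 27 lie between the dotted lines. The interval that crosses a dotted line is that of LINC01138 probe set 16691859, from -0.61 to 0.19.

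Annotation of these loci has changed since the array was designed. Of 912 gene identifiers, 897 were found in RefSeq, where 802 still have a LINC symbol and 95 have another name. RefSeq classes 865 of them as lncRNA, 27 as protein-coding and 5 as transcribed pseudogenes. The 27 protein-coding loci were covered by 30 probe sets, of which 7 had a mean above 4 and 1, LINC00684, had an unadjusted p under 0.05, against 6.63% of all tested probe sets. Besides NBDY these include SMIM26 (LINC00493), a small mitochondrial protein, at 7.01 ± 0.12 in overexpressing cells and 7.12 ± 0.049 in controls (SD, n = 5 each). SMIM30 (LINC00998) stood at -0.092 (SE 0.077), BRD3OS (LINC00094) at -0.036 (SE 0.070) and SMIM45 (LINC00634) at 0.12 (SE 0.12). The mitochondrial microprotein gene MTLN (LINC00116) had a mean of only 2.64.

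Several LINC genes share a start region with a protein-coding gene. Starts on opposite strands lay within 2000 bases of each other, without overlap, for 34 LINC probe sets, 9 of the 121 above 4 (7.44%) and 25 of the 850 others (2.94%). The coding partner had a mean above 4 in 25 of the 34 pairs. Differences of the LINC RNA and its partner had the same sign in 11 of 34 pairs, and in 2 of the 9 brighter ones. The share of same-sign pairs among other neighbouring genes was not computed, so these counts are no result about the pairs. SLC12A2, the sodium, potassium and chloride cotransporter gene 666 bases from LINC01184, stood at -0.042 (SE 0.056) beside -0.17 for the LINC RNA. ICMT, 256 bases from LINC00337, stood at 0.03 beside -0.034, and TM9SF2, 224 bases from LINC01232, at 0.058 beside -0.008. In 0 of 34 pairs did the coding partner pass an adjusted p of 0.05 (limma), against 0.0187% of all tested probe sets. An unadjusted limma p under 0.05 was found for 3 of the 34 partners and 4 of the 34 LINC probe sets. Over all tested probe sets that share was 6.63%, so these small counts are no result about the pairs.

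More than 1 probe set was present for 54 symbols, 115 probe sets in all. LINC00102 and LINC00685 each had 2 probe sets on 2 chromosomes with the same mean and difference. Each of these pairs may be 1 measurement listed more than once. Signs disagreed within 23 of the 54 symbols. For LINC00377 both had an unadjusted p under 0.05 in opposite directions, -0.28 for the shorter and 0.14 (SE 0.064) for the longer one, at means of 2.11 and 2.18. LINC00969 had 3 probe sets, at -0.46 (SE 0.19), 0.17 (SE 0.090) and 0.25 (SE 0.13), all with means under 4. In 3 symbols with all probe sets above 4 the signs also differed: LINC00649 at 0.10 and -0.20, LINC01138 at 0.07 and -0.21, and LINC01232 at 0.16 and -0.008. None of these 6 differences had an unadjusted p under 0.05. For the -0.21 of LINC01138, overexpressing replicate 1 read 5.17 and the other overexpressing arrays 5.91 to 6.34. In LINC00623, LINC00888, LINC01061, LINC01184, LINC01296, LINC01347 and LINC01388, also with all probe sets above 4, signs did not disagree. How often signs differ among other genes with several probe sets was not computed, so these counts are no result about LINC RNAs.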

How the data were processed

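Total RNA of UT-SCC-12a cells was hybridized to 10 Affymetrix gene arrays, grouped and numbered by their titles. Deposited values are log2 RMA signals, and RMA and Transcriptome Analysis Console are named in the submitters' processing notes. Background correction by RMA, then quantile normalization and summary by median polish are given per the file headers. Signed linear fold changes and the p-values and q-values of Student's test are the authors' own, per the file headers, and their B-over-A fold matched linear-scale group means, overexpressing divided by control, for 53617 of 53617 probe sets (relative tolerance 0.001). Differences in the text are of log2 means and can depart from that fold in size or, near 0, in sign. The table's 10 columns of values per array match no sample label and were not used. Symbols, hg19 coordinates and categories come from the same table (NetAffx build 36).

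The 48144 gene-level probe sets were fitted with limma 3.58.1 (lmFit, eBayes) in R 4.3.3, with Benjamini-Hochberg adjustment over all of them and a threshold of 0.05, leaving out 5473 control and reporter probe sets. Every adjusted p in the text is limma's, and SE is its moderated standard error. For single members the two-sided exact permutation test ran over 252 splits of the arrays; an adjustment over the named members was planned and is not given, since some were named for their separation. The fit was tested on simulated arrays. RefSeq names and promoters (GRCh38.p14) were matched by gene identifier.

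The members and lists were chosen with earlier results of these data known. Named were members past the threshold; up to 6 higher and 6 lower with groups apart; the 8 with the highest mean; list members above a mean of 4; symbols whose probe sets differ in sign, as a count with examples; and nearest neighbours of the members with groups apart. Tried as alternatives were the replicate block, trended and robust priors, filters, centring, renewed quantile normalization, array weights, annotation subsets, a spike covariate, other tests and leaving out each array. The number of arrays limits the precision.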

Additional observations from a re-analysis of the deposited data

Results flagged for a closer look

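In the 68 groups of 5 arrays behind the named members, 2 arrays stood far from the other 4 of their group by Dixon's gap test, and chance alone flags about 1 in 20 groups. LINC00536 (probe set 17080364) read 2.80 in overexpressing replicate 3, with the other overexpressing arrays between 2.85 and 2.87, so the flag reflects a very narrow group. LINC01138 (probe set 16692435, mixed cross-hybridization type) read 6.45 in control replicate 2, against 6.06 to 6.14 in the other controls.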

How the results depend on the processing

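LINC members past an adjusted p of 0.05 numbered 0 under all 23 alternative fits, and at thresholds of 0.01 and 0.1 in the fit as reported, and the lowest adjusted p of a member ran from 0.0727 (LINC00536 by Student's test) to 0.643 (with the replicate block) over the alternatives. Members with an unadjusted p under 0.05 numbered 44 to 60 without single arrays and 9 of 121 when only probe sets with a mean above 4 were fitted. The shares over all probe sets in these fits are not given here, so those counts have no background. The median difference of the members was 0.0025 to 0.011 without single arrays, 0.04 with a mean above 4 only, where fewer members enter, and -0.01 after median centring, which shifts all probe sets by -0.016. Members counted as above background numbered 53 at a mean above 5 and 28 above the 95th percentile of the antigenomic probe sets, in place of 121. Calls over all probe sets, 9 as reported, were 1 with the replicate block, 26 and 39 with a trended prior without and with robust estimation, 31 with a mean above 4 only, 2 with the spike covariate, 3 by Welch's test and 5 to 8 without single arrays; they were 5 without overexpressing replicate 5 and without control replicates 2, 3 and 5. The cause of these changes was not tested. Same-numbered arrays did not deviate together (correlations from -0.101 to 0.0428 in 5 pairs). The labels do not say whether same-numbered samples were made together, and low correlations cannot settle it. With the replicate block 46 members had an unadjusted p under 0.05, again without a background, and 0 passed. Of 771 differences of named members recomputed, 734 kept their sign, the 37 others belonged to 10 members with differences of 0.05 or less, and 0 crossed the threshold. Signals near background limit what could be seen in 850 of the 971 probe sets.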

Other observations

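Long noncoding RNAs with a name of their own, outside the LINC series, were listed for comparison. Of 40 listed, 36 were measured outside the LINC series by 39 probe sets, 28 of them with a mean above 4. NORAD, also listed, was measured as LINC00657 and is counted with the members. Their differences had a median of 0.016, with 21 higher and 18 lower, and 0 passed limma at an adjusted p of 0.05, while 3 had an unadjusted p under 0.05, a share near the 6.63% of all tested probe sets. H19, an imprinted RNA of fetal tissues and tumours, stood at 0.26 (SE 0.072, limma adjusted p = 0.516). The small nucleolar RNA hosts SNHG1 and SNHG6 stood at -0.13 (SE 0.061) and -0.16 (SE 0.072), each with a limma adjusted p of 0.750. SNHG5, SNHG8 and GAS5, of the same kind, stood at -0.058, -0.03 and -0.05, and SNHG12, SNHG16 and SNHG17 at 0.084, 0.026 and 0.042. MALAT1 at -0.006 (SE 0.060) and TUG1 at -0.002 (SE 0.065), both abundant nuclear RNAs, were measured at means of 10.25 and 9.82. NEAT1, the scaffold of nuclear paraspeckles, had probe sets at 0.066 (mean 11.11) and -0.28 (mean 4.04), neither past the test. MIR205HG and MIR31HG, microRNA hosts of epithelial cells, stood at 0.016 and -0.038. MIR99AHG, listed earlier as LINC00478 and so no member, stood at 0.26 (SE 0.077) with a mean of only 2.34 and a limma adjusted p that did not pass.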
